A study of Mus musculus with 22 samples.

Results

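The genes described here encode 10 neuropeptide precursors, picked by name from the 34584 genes of the count tables. Of these, 6 belong to peptides best known from neurons of the hypothalamus (Avp, Oxt, Hcrt, Pmch, Trh and Pomc) and 4 to peptides that mark neurons of the cerebral cortex (Sst, Npy, Cck and Vip). RNA had been sequenced from 22 pieces of tissue: thymus from 4 Tol and 4 WT mice, cerebrum from 4 Tol and 4 WT mice, and cerebellum from 2 Tol and 4 WT mice. All mice were of the C57BL/6 strain, and the colony's mice were used at 7 to 14 weeks of age. The labels give no age or sex for a single mouse. Tol mice carried, in the heterozygous state, a shuffled open reading frame of reporter and modifier proteins that the ubiquitous CAG promoter drives; it had been placed downstream of Col1a1 by cassette exchange in embryonic stem cells. WT mice were littermates without it. The tissues received no treatment that the labels name. Levels are given as estimated counts or as CPM (counts per 1000000 counts of the library, scaled within an organ by TMM, edgeR's factor for library composition), and a level of at most 3 counts in a library is called at the floor. This floor covers counting error only and lay between 0.141 and 0.169 CPM in the WT cerebra. Library totals ran from 18519829 to 34776973 counts in the Tol thymi, 16319117 to 29145285 in the WT thymi, 14543698 to 23311643 in the Tol cerebra and 18049096 to 21007905 in the WT cerebra. Cerebellum totals were 25298676 and 25250446 for Tol 1 and Tol 2 and lay between 23340005 and 27057348 for WT.

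Neuropeptides are made as larger precursors that convertases cut in secretory vesicles, and they are released from neurons or endocrine cells to act on G protein-coupled receptors. Vasopressin, oxytocin, orexin and melanin-concentrating hormone come mainly from compact groups of hypothalamic neurons, so that a piece of brain that misses these groups holds little of their RNA. Somatostatin, neuropeptide Y, vasoactive intestinal peptide and cholecystokinin are made by scattered inhibitory interneurons of the cortex, and cholecystokinin also by excitatory cortical neurons. In the thymus, medullary epithelial cells transcribe small amounts of many genes of other tissues.

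The tissue labels were compared with marker genes. Markers of neurons (7 genes) summed to 5144 to 7709.9 CPM in the cerebra, with Snap25 the most abundant. In the thymi they summed to 20.5 to 31.1 CPM, with Syt1 the most abundant. Markers of thymocytes (9 genes, Rag1 the most abundant) summed to 9434 to 12924 CPM in the thymi. Of the 12 transcription factors that mark the hypothalamus, 8 were at the floor in every cerebrum (Rax, Hmx2, Hmx3, Bsx, Fezf1, Nr5a1, Nkx2-4 and Foxb1), and 3 of the 12 had 0 counts in all of them. Their summed level in the cerebra lay between 1.24 and 3.13 CPM, with Nkx2-1 the most abundant at a mean of 0.916 CPM. In the 8 thymi the same list summed to 2.31 to 3.90 CPM, so that the ranges of cerebrum and thymus overlapped. The name hypothalamic is used below for the peptides and not for the tissue.

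Some brain libraries stood apart. Cerebellum Tol 2 held 281 CPM of the 8 cerebellar markers, of which Car8 was the most abundant, against 2837 to 7059 CPM in the other 5 cerebella. It held 895 CPM of the 7 markers of thalamus and midbrain, where cerebellum WT 1 had 398, WT 2 had 268 and the remaining 3 libraries had 90.6 to 103.4 CPM. The most abundant of these markers in Tol 2, WT 1 and WT 2 was Slc17a6, the glutamate transporter of subcortical excitatory neurons, at 510 CPM in Tol 2, 175 in WT 1 and 204 in WT 2. The 6 choroid plexus markers reached 1279 CPM in cerebellum WT 2 and 4513 CPM in WT 4, against 19.1 to 34.6 CPM in the other 4 cerebella, with Ttr the most abundant in WT 2 and WT 4. In the cerebrum, the 7 striatal markers summed to 2820 CPM in WT 3 and 1603 CPM in Tol 4, and to between 203.5 and 343.1 CPM in the other 6, with Pde10a the most abundant. Fold changes of members are also given without some of these libraries, and counts and medians of the other gene lists only with all of them. In bulk RNA, fewer cells of a type and less RNA in each cell cannot be told apart.

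The hypothalamic peptides were close to the limit of detection in the cerebrum. Avp, the vasopressin precursor, had 3, 1, 0 and 1 counts in the Tol cerebra and 0, 0, 1 and 1 in the WT cerebra. Oxt, the oxytocin precursor, had 0, 1, 2 and 1 counts in Tol and 0, 1, 2 and 1 in WT cerebra. Hcrt, which encodes the orexins that sustain wakefulness, had 1, 0, 1 and 0 counts in Tol and 2, 2, 0 and 2 in WT cerebra. These 3 genes never left the floor in any of the 8 libraries, and neither did Pmch, the precursor of melanin-concentrating hormone, with 0 to 3 counts. No fold is given for them, since both genotypes were at the floor. A difference between genotypes was not detectable for them at this depth.

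Trh and Pomc were the 2 hypothalamic members over the floor in every cerebrum. Trh, which encodes thyrotropin-releasing hormone, had 0.589, 0.372, 0.386 and 0.413 CPM in the Tol cerebra and 0.658, 0.620, 0.782 and 0.836 CPM in the WT cerebra, from 6 to 16 counts in a library. Every Tol cerebrum thus lay under every WT cerebrum, and Trh was the only member of the 10 whose genotypes did not overlap in the cerebrum; over all 24720 genes with a count there, 4.76% did not overlap, and 1.96% of those with at most 20 counts in every library. The log2 fold change of Tol against WT was -0.70 (SE 0.25), which did not pass edgeR's quasi-likelihood test after Benjamini-Hochberg adjustment over all genes (adjusted p = 0.411). Pomc, whose precursor is cut into ACTH, melanocortins and beta-endorphin, had 0.926, 1.07, 2.70 and 1.03 CPM in the Tol cerebra. It had 0.611, 1.58, 0.470 and 0.627 CPM in the WT cerebra. Tol 3 and WT 2 were each high within their group, and the genotypes overlapped (log2 fold change 0.83, SE 0.48, edgeR adjusted p = 0.623). The fold change was 0.31 (SE 0.42) without Tol 3 and 1.33 (SE 0.45, edgeR adjusted p = 0.441) without WT 2.

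The cortical peptides were abundant in every cerebrum. Sst, the somatostatin precursor, had 129.7, 122, 127 and 104 CPM in the Tol cerebra and 151, 139.9, 126 and 159 CPM in the WT cerebra. Tol 1 and Tol 3 lay above the lowest WT value, so the genotypes overlapped. The mean was 121 ± 11.7 CPM (SD, n = 4) in Tol and 144 ± 14.3 CPM (SD, n = 4) in WT cerebra, a log2 fold change of -0.26 (SE 0.09) that did not pass the adjustment (edgeR adjusted p = 0.425). Npy, the precursor of neuropeptide Y, had 55.0, 81.1, 49.7 and 54.4 CPM in Tol and 32.5, 70.1, 57.7 and 41.2 CPM in WT cerebra. Cck, the cholecystokinin precursor, had 191, 224, 179 and 136 CPM in Tol and 172, 218, 152 and 164 CPM in WT cerebra. For both genes the ranges of the genotypes lay over each other, with log2 fold changes of 0.25 (SE 0.24) and 0.049 (SE 0.16). Vip, the precursor of vasoactive intestinal peptide and a marker of interneurons that inhibit other interneurons, had 42.5, 34.2, 32.7 and 27.9 CPM in Tol and 34.3, 29.996, 24.5 and 36.2 CPM in WT cerebra (log2 fold change 0.14, SE 0.15). The Vip values of the genotypes overlapped too.

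**Figure D1:**
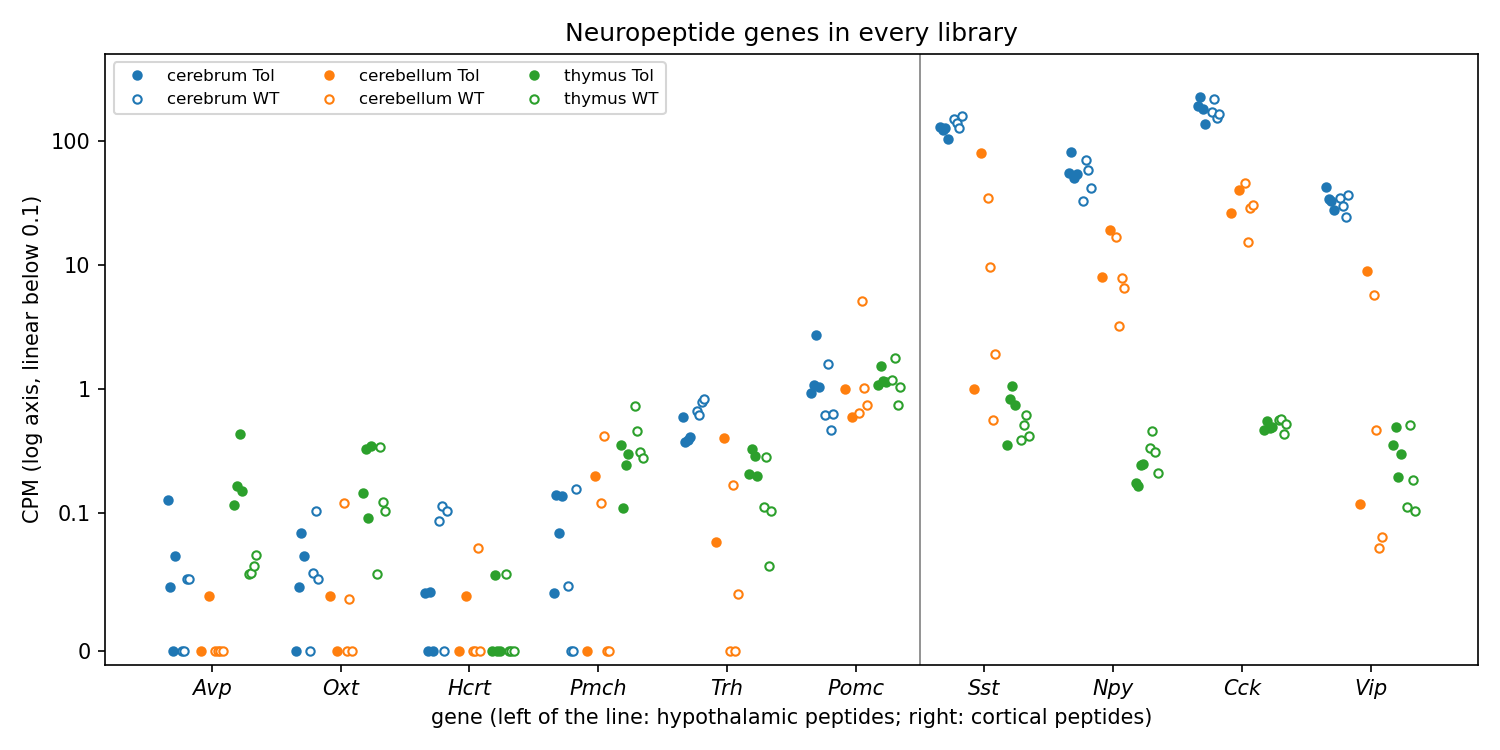
Level of each of the 10 genes in every library, in CPM on a log axis that is linear below 0.1; filled points are Tol and open points WT libraries, coloured by organ. The 4 cortical peptides lie between 24.5 and 224 CPM in the cerebra, where Avp, Oxt, Hcrt and Pmch lie at 0 to 0.157 CPM.

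Of the 10 genes, 6 passed the expression filter of the cerebrum fit, and 0 of these 6 were called between genotypes. The background was the same, 0% of the 15596 genes tested: edgeR called 0 at an adjusted p under 0.05, with 1506 at an unadjusted p under 0.05, and DESeq2 called 187. Without cerebrum Tol 4 and WT 3, the libraries with high striatal markers, edgeR called 2 genes. The log2 fold change was then -0.25 for Sst and -0.64 for Trh, and neither passed (edgeR adjusted p = 0.377 and 0.574). It was 0.75 for Pomc, 0.37 for Npy, 0.1005 for Cck and 0.12 for Vip, none of them called.

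Per kilobase of the longest coding transcript, the order of the levels in the WT cerebrum was Cck at 221 ± 36.5 CPM per kb (SD, n = 4), Sst at 199.9 ± 19.8, Npy at 89.0 ± 29.7 and Vip at 20.4 ± 3.41. Pomc followed at 0.788 ± 0.489 and Trh at 0.523 ± 0.0737 CPM per kb. Cck and Sst did not differ beyond their spread, nor did Pomc and Trh, and the other 4 genes had 0.133 CPM per kb or less. Summed over members, the cortical peptides had 389, 459, 361 and 400.4 CPM in the WT cerebra and the hypothalamic peptides 1.41, 2.37, 1.41 and 1.83 CPM. The log2 ratio of the hypothalamic to the cortical sum was -7.87 ± 0.23 (SD, n = 4) in WT and -7.61 ± 0.54 (SD, n = 4) in Tol cerebra. Cerebrum Tol 3 had the ratio closest to 0 of the 8, at -6.88, and in this library Pomc made up 2.70 of the 3.30 CPM of the hypothalamic sum.

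How the members varied together was examined over the 8 cerebra on log2(CPM + 1). For 15 of the 45 pairs, both genes were over the floor in every cerebrum. Trh and Sst had Pearson's r = 0.696 (exact permutation test, p = 0.0509) and Spearman's rho = 0.667 (exact permutation test, p = 0.0831), with r = 0.352 within Tol and 0.114 within WT (n = 4 each, not tested), and r = 0.773 without the 2 libraries farthest from the median of Trh. Trh and Pomc had r = -0.671 (exact permutation test, p = 0.0634) and rho = -0.738 (exact permutation test, p = 0.0458), and r = -0.573 without the same 2 libraries. Of the 45 pairs, 2 had an unadjusted p of r under 0.05 (Hcrt with Sst and Oxt with Vip, each with a gene at the floor) and 0 after Benjamini-Hochberg adjustment (permutation test), where both pairs above had an adjusted p of 0.714. Sst and Vip, which mark separate classes of interneurons, had r = 0.404 (exact permutation test, p = 0.317) and rho = 0.595 (exact permutation test, p = 0.132); without the 2 libraries farthest from the median of Sst, r was 0.0869. Within the genotypes r was 0.836 in Tol and 0.993 in WT cerebra (n = 4 each, not tested). Over the 8 cerebra no pair thus held up against the number of pairs examined.

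Among the 15596 genes kept in the cerebrum, those most like Sst in their pattern over the 8 libraries were Atf6b (r = 0.983, rho = 0.952), Wdtc1 (r = 0.972, rho = 0.976) and P4htm (r = 0.971, rho = 0.952). Those most like Vip were the somatostatin receptor gene Sstr1 (r = 0.982, rho = 0.905), Abhd14b (r = 0.973, rho = 0.929) and P2ry6 (r = 0.957, rho = 0.976). They are the highest of many values over few libraries and are given as a description. For Avp and Pmch none is named, since both were at the floor in all 8 cerebra.

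In the cerebellum, Sst and Vip were uneven between libraries. Sst had 0.990 and 79.7 CPM in Tol 1 and Tol 2, and 34.2, 9.58, 0.560 and 1.90 CPM in WT 1 to WT 4. Vip had 0.119 and 8.93 CPM in the Tol libraries and 5.74, 0.462, 0.0747 and 0.0827 CPM in the WT libraries. Tol 2 was the highest and WT 1 the next for both genes, as for the markers of thalamus and midbrain. The other genes were less uneven. Npy had 8.04 and 19.2 CPM in the Tol libraries and 16.8, 3.19, 7.88 and 6.54 CPM in the WT libraries, and Cck had 26.0 and 40.1 CPM in Tol and 45.8, 15.3, 28.8 and 30.4 CPM in WT. Of the 7 thalamus and midbrain markers, Tcf7l2 stood at 271 CPM in Tol 2 and 129 CPM in WT 1 and at most at 6.14 CPM in the other 4 cerebella. Slc17a6 had another order, with more in WT 2 than in WT 1 (204 against 175 CPM). The part of these other regions in the Sst and Vip values was not tested.

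**Figure D2:**
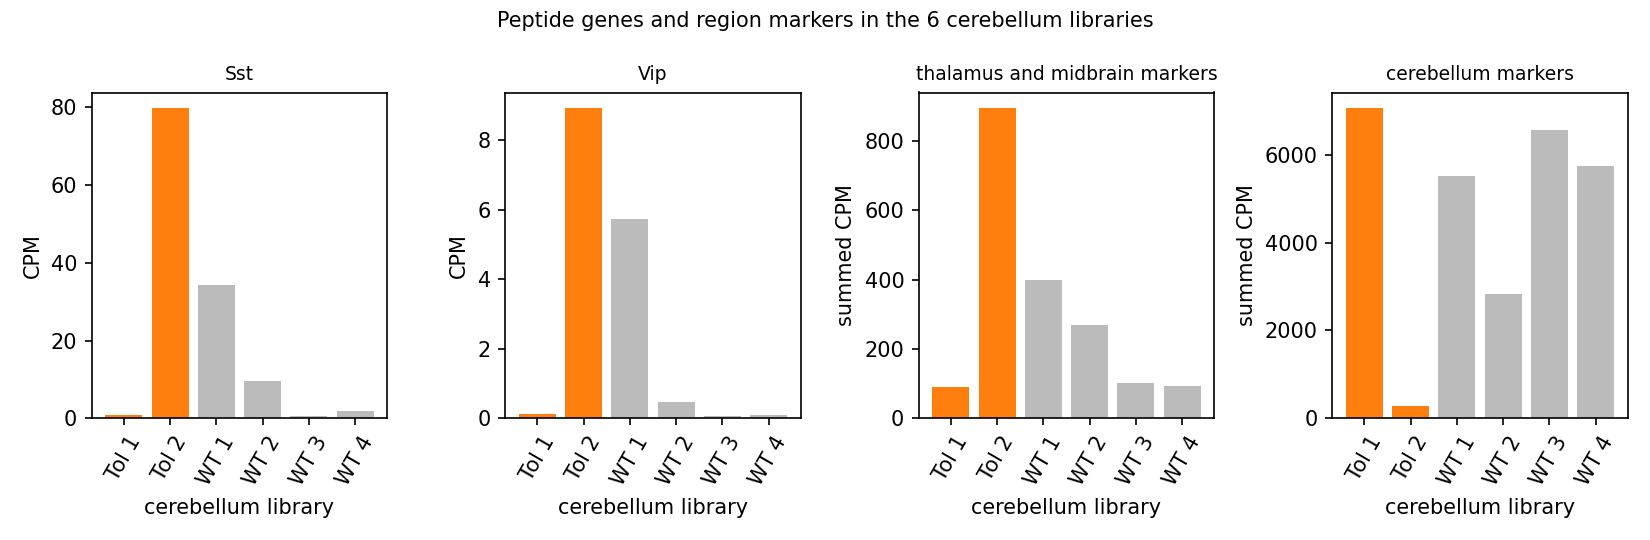
Bars give the CPM of Sst and of Vip and the summed CPM of 7 thalamus and midbrain markers and of 8 cerebellum markers in each of the 6 cerebellum libraries (Tol in orange, WT in grey). Tol 2, at 79.7 CPM of Sst, has 895 CPM of the thalamus and midbrain markers and 281 CPM of the cerebellar markers.

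Between genotypes, 5 of the 10 genes passed the cerebellum filter and 0 of the 5 were called, against 0% of 16662 genes (edgeR, 0 called with 527 at an unadjusted p under 0.05; DESeq2 called 9). Sst had a log2 fold change of 1.80 (SE 1.76, edgeR adjusted p = 0.957) and Vip of 1.51 (SE 1.90, edgeR adjusted p = 0.958). Without Tol 2 and WT 1 the direction turned, to -2.01 for Sst and -0.76 for Vip (at the floor in 3 of the 4 libraries left), and with a single Tol cerebellum left its spread was assumed to be that of the WT group. No member differed between genotypes in CPM without overlap, where 9.74% of all 24733 genes with a count in the cerebellum did. The genotype effect in the cerebrum was also compared with that in the cerebellum. Of the 6 members that entered this fit, 0 were called, as were 0% of 17130 genes (edgeR, 1042 at an unadjusted p under 0.05; DESeq2 called 7). The lowest unadjusted p among members was that of Trh (edgeR adjusted p = 0.811), for which no difference is given, since 4 of the 6 cerebella were at the floor.

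Of the hypothalamic peptides, Avp, Oxt and Hcrt were at the floor in all 6 cerebella. Trh was at 2 and 10 counts in the Tol and at 0, 4, 0 and 1 counts in the WT cerebella. Pmch had 0 and 5 counts in Tol and 3, 10, 0 and 0 in WT libraries, with the 10 counts in WT 2. Pmch overlaps Parpbp on the opposite strand, and whether the counting used strand is not stated, so its few counts are uncertain. Pomc had 0.990 and 0.598 CPM in the Tol and 0.638, 5.09, 1.01 and 0.744 CPM in the WT cerebella, so that WT 2 held several times the level of any other cerebellum.

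Of the 3 brain libraries in which Pomc was high within its group, 2 also held more pituitary transcripts than the rest. Cerebrum Tol 3, with 2.70 CPM of Pomc, had 37.1 CPM of the prolactin gene Prl and 11.7 CPM of the growth hormone gene Gh. The other 7 cerebra had at most 1.35 CPM of Prl and 0.551 CPM of Gh. Cerebellum WT 2, with 5.09 CPM of Pomc, had 5.04 CPM of Prl and 1.98 CPM of Gh, and the other 5 cerebella had at most 0.579 and 0.0414 CPM. Summed over the 9 pituitary genes, cerebrum Tol 3 had 50.9 CPM and the other cerebra 1.51 to 3.53 CPM. Cerebellum WT 2 had 12.3 CPM and the other cerebella 4.58 to 7.30 CPM. The 12 hypothalamic transcription factors were also high in cerebellum WT 2, at 3.78 CPM, against 7.14 CPM in Tol 2 and 1.35 to 1.59 CPM in the other 4. Cerebrum WT 2, the other cerebrum in which Pomc was high within its group, had 0.113 CPM of Prl and 2.48 CPM of the whole list. In cerebrum Tol 3 and cerebellum WT 2 Prl was the most abundant gene of the list, and Tshb, which overlaps Tspan2 on the other strand, in each of the other 7 cerebra and 5 cerebella. Tbx19, a factor of Pomc-expressing pituitary cells, was at the floor in every cerebrum and every cerebellum, as were Cga, Fshb and Pou1f1; in the cerebra Lhb and Pitx1 were too. Pomc was the most abundant hypothalamic member in every thymus and cerebellum and in 5 of the 8 cerebra, and Trh was in cerebrum WT 1, WT 3 and WT 4. The part of pituitary RNA in the Pomc level was not tested.

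**Figure D3:**
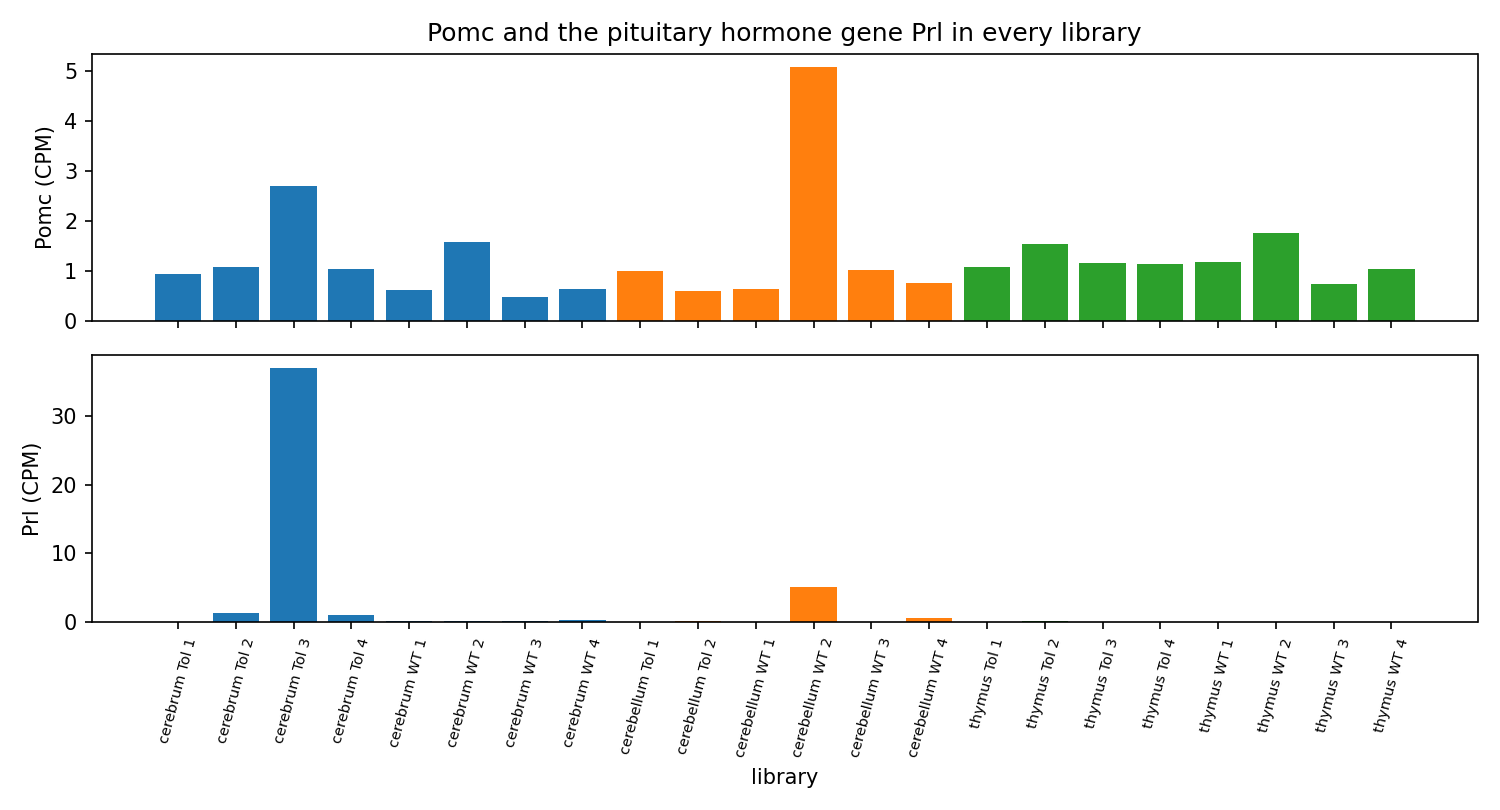
Bars give the CPM of Pomc (top) and of the prolactin gene Prl (bottom) in each of the 22 libraries, coloured by organ. Cerebrum Tol 3 has 2.70 CPM of Pomc and 37.1 CPM of Prl, and cerebellum WT 2 has 5.09 and 5.04 CPM.

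In the thymus all 10 genes had few counts. Pomc had 37, 28, 24 and 23 counts in the Tol thymi and 21, 31, 12 and 30 in the WT thymi, which is 1.23 ± 0.209 CPM (SD, n = 4) and 1.18 ± 0.427 CPM (SD, n = 4). Sst had 12, 15, 22 and 15 counts in Tol and 7, 9, 10 and 12 in WT thymi. These were the 2 members that passed the thymus filter. Neither was called (log2 fold change 0.053, SE 0.27, edgeR adjusted p = 0.926 for Pomc; 0.59, SE 0.36, edgeR adjusted p = 0.333 for Sst), where 0.0985% of 16248 genes were (16 genes, 9 higher and 7 lower in Tol, with 3965 at an unadjusted p under 0.05; DESeq2 called 1296). The count of 16 rested on single libraries: it was 2978 without thymus Tol 1, 97 without Tol 3, 7 without WT 4 and 0 without any of the other 5.

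Avp had more counts in the thymus than in the brain. It had 4, 3, 9 and 3 counts in the Tol thymi and 1, 1, 1 and 2 in the WT thymi. In CPM these were 0.117, 0.165, 0.435 and 0.149 against 0.0557, 0.0567, 0.0618 and 0.0695, so every Tol thymus lay above every WT thymus, and Tol 3 lay far above the other Tol thymi. Tol 2 and Tol 4 were at the floor as well, and 3 counts in thymus WT 1, WT 2 or WT 3 would be 0.167 to 0.185 CPM, above Tol 1, Tol 2 and Tol 4. Avp was the only member of the 10 whose genotypes did not overlap in the thymus, where 7.90% of the 26851 genes with a count did not overlap, and 2.02% of those with at most 20 counts in every library. The difference of 0.155 CPM had p = 0.0286 in a two-sided exact permutation test, the smallest that 4 against 4 libraries can give; it was chosen after the values were seen. It was 0.0826 CPM without Tol 3, and without any 1 of the WT thymi the exact permutation p was 0.0571 to 0.0857. Avp did not pass the thymus filter. With every gene tested that had a count, edgeR gave it an adjusted p of 0.224. No fold is given, since 6 of the 8 thymi were at the floor.

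Hcrt had 0 or 1 counts in the thymi. Pmch had 12, 2, 5 and 6 counts in the Tol and 13, 8, 5 and 8 in the WT thymi and was over the floor in 7 of 8 libraries, with the overlap with Parpbp applying here too. Oxt was over the floor in 4 of 8 thymi (1 to 7 counts) and Trh in 5 of 8 (1 to 7 counts). The cortical peptides Cck (7 to 16 counts), Npy (3 to 8) and Vip (2 to 12) were as sparse. The summed level of the hypothalamic peptides was 2.20 ± 0.261 CPM (SD, n = 4) in Tol and 1.99 ± 0.703 CPM (SD, n = 4) in WT thymi. That of the cortical peptides was 1.79 ± 0.314 and 1.56 ± 0.345 CPM. The log2 ratio was 0.31 in Tol (SD 0.14, n = 4) and 0.31 in WT thymi (SD 0.39, n = 4), and it was above 0 in 7 of 8 thymi. Without Pomc the hypothalamic sum was 0.556 to 1.13 CPM and lay under the cortical sum, 1.25 to 2.04 CPM, in all 8. Taken as a mean over members of log2(CPM + 1), the hypothalamic minus the cortical value was -0.12 and -0.11, so the direction depended on the measure. As a marker of the medullary epithelium, Aire stood at 26.9 ± 3.78 CPM (SD, n = 4) in Tol and 28.1 ± 2.63 CPM (SD, n = 4) in WT thymi. The 9 thymic epithelium genes summed to 1900.2 to 2224 CPM, with Prss16 the most abundant. Of these 9, 7 had a log2 fold change of Tol against WT above 0 (median 0.14 against 0.0070 over all genes), Epcam had the lowest p (0.25, SE 0.074, edgeR adjusted p = 0.0982), and 0 were called. Their part in the peptide levels was not tested.

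The organs of the WT mice were compared in a joint fit of the 12 WT libraries, in which 6 of the 10 genes passed the filter and which the contrasts below share. It treats the 12 libraries as independent, and whether organs of the same number came from the same mouse is not stated. All 4 cortical peptides were higher in the cerebrum than in the cerebellum. The log2 fold change was 3.78 (SE 0.80) for Sst, 4.43 (SE 0.86) for Vip, 2.69 (SE 0.41) for Npy and 2.69 (SE 0.26) for Cck, and edgeR's adjusted p lay between 3.87e-06 for Cck and 0.00180 for Sst. Trh, with 56 counts over the 4 WT cerebra and 5 over the 4 WT cerebella, was higher too (log2 fold change 3.85, SE 0.65, edgeR adjusted p = 0.000364). It passed the filter by its cerebrum counts, and the size of the fold is uncertain, since 3 of the 4 cerebella were at the floor. Pomc was not called (-1.04, SE 0.66, edgeR adjusted p = 0.211). Vip, with 144, 11, 2 and 2 counts in the WT cerebella, also passed by its cerebrum counts, and the size of its fold is uncertain too. With Trh and Vip left aside, Sst, Npy and Cck were called in this contrast and Pomc was not, where 51.1% of 17413 genes were called. Without cerebellum WT 1 and WT 2 the fold changes were 7.03 for Sst, 8.68 for Vip (against 2 cerebella at the floor), 2.94 for Npy and 2.72 for Cck, and that of Pomc was 0.034. Without WT 4, high in choroid plexus markers, they were 3.43, 4.04, 2.58 and 2.70, all called, and Pomc was at -1.30. In the 10 Tol libraries, Sst was not called (1.76, SE 1.01, edgeR adjusted p = 0.245), and cerebellum Tol 2 is 1 of the 2 cerebella there; Vip, Npy and Cck were.

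Against the thymus, Cck, Sst, Npy, Vip and Trh were higher in the WT cerebrum, where 84.3% of the genes were called in either direction. The log2 fold change was 8.79 (SE 0.38) for Cck, 8.64 (SE 1.13) for Sst, 7.71 (SE 0.59) for Npy, 7.56 (SE 1.12) for Vip and 2.74 (SE 0.58) for Trh. Their edgeR adjusted p lay between 1.89e-10 for Cck and 0.000696 for Trh. In 3 of the 4 WT thymi Vip and Trh were at the floor (2, 9, 3 and 3 counts of Vip and 2, 5, 1 and 3 of Trh), so the size of these 2 folds is uncertain. Of the 6 genes, only Pomc and Sst passed the thymus filter. Cck, Npy, Vip and Trh entered this joint fit by their counts in the brain, so no count of called members is read against the 84.3%. Pomc was not called (-0.12, SE 0.68, edgeR adjusted p = 0.872). In the WT cerebellum against the WT thymus, 83.5% of genes were called. Cck at 6.10 (SE 0.37), Npy at 5.02 (SE 0.59) and Sst at 4.86 (SE 1.13) were higher in the cerebellum. Vip was called too, at 3.12 (SE 1.25, edgeR adjusted p = 0.0340), with 2 of the 4 cerebella and 3 of the 4 thymi at the floor. The size of this fold is thus uncertain, and no count of members is read against the 83.5%. Vip lost this call without cerebellum WT 1 (log2 fold change 0.18, edgeR adjusted p = 0.826), and no fold is given without WT 1 and WT 2, since the 2 cerebella left had 2 counts each. Sst was still called without both libraries, at 1.62. Vip was also lost without thymus WT 1, WT 3 or WT 4 (edgeR adjusted p = 0.0761, 0.0692 and 0.0921), and with the block on replicate number described below. For Trh no fold is given, since 3 of the 4 cerebella and 3 of the 4 thymi were at the floor. Pomc had 0.92 (SE 0.64, edgeR adjusted p = 0.199).

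Other genes of the same pathway were taken from lists of 24 further neuropeptides, 24 receptors of the 10 peptides and 14 genes of peptide processing and storage. Of the further neuropeptides, 16 passed the filter of the organ fit. The share of all genes called in the same contrast stands beside each count. In the WT cerebrum against the cerebellum 7 were higher and 1 lower (8 of 16, against 51.1%), with a median log2 fold change of 1.22 against -0.0295 over all genes; Cort, which encodes the somatostatin relative cortistatin, had the lowest p (5.36, SE 0.37). Against the thymus 10 were higher and 5 lower in the cerebrum (15 of 16, against 84.3%; median 3.53 against -0.0585), again with Cort first by p (6.45, SE 0.41). In the cerebellum against the thymus 5 were higher and 3 lower (8 of 16, against 83.5%, median 0.42 against 0.0103), with Adcyap1, the PACAP precursor, at 5.33 (SE 0.42). Only 11 of the list passed the thymus filter and 12 the cerebellum filter. Some of the 16 thus entered the organ fit by their counts in another organ. The counts of higher genes were in part set by this, and the size of such folds is uncertain. Penk, the enkephalin precursor, had the highest CPM of the list in every cerebellum and in 6 of the 8 cerebra and thymi each (Pdyn had it in cerebrum WT 1 and WT 4, Nmb in thymus Tol 2 and Tol 3). It differed between cerebra as the striatal markers did, at 572 CPM in WT 3 and 344 CPM in Tol 4 and 13.6 to 67.4 CPM in the other 6. The part of striatal tissue in this was not tested.

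Of 19 receptor genes tested, 13 were higher and 2 lower in the WT cerebrum than in the cerebellum (15 of 19, against 51.1%; median log2 fold change 2.55 against -0.0295 over all genes), with Vipr1, a receptor for vasoactive intestinal peptide, first by p (3.37, SE 0.19). Against the thymus 16 were higher and 2 lower in the cerebrum (18 of 19, against 84.3%, median 5.59). In the cerebellum 13 were higher and 4 lower (17 of 19, against 83.5%, median 3.66). Sstr3 was first by p in both (6.26, SE 0.20, and 5.20, SE 0.20). Only 7 receptors passed the thymus filter, so most of the 19 entered the organ fit by their brain counts. The counts of higher receptors were in part set by this, and the size of their folds against the thymus is uncertain. In CPM, the most abundant receptor gene of the cerebrum was Cckbr, a cholecystokinin receptor, at 48.4 ± 7.80 CPM (SD, n = 4) in WT and 51.5 ± 10.6 CPM (SD, n = 4) in Tol. Some receptors were present where their peptides were at the floor: Mchr1, the receptor of melanin-concentrating hormone, had 19.2 ± 5.58 CPM (SD, n = 4) and Oxtr, the oxytocin receptor gene, 7.55 ± 1.52 CPM (SD, n = 4) in the WT cerebrum. The vasopressin receptor genes Avpr1b and Avpr2 were at the floor in every cerebrum, as Avp was. Avpr1a, also a vasopressin receptor gene, was not at the floor in all of them. In the thymus 12 of the 24 receptors were at the floor in every library. The most abundant there was Vipr1, at 12.5 ± 1.58 CPM (SD, n = 4) in WT thymi, and Avpr2, which overlaps L1cam and Arhgap4 on the other strand, had 4.41 ± 0.443 CPM (SD, n = 4).

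The 14 processing and storage genes were all higher in the WT cerebrum than in the thymus (14 of 14, against 84.3%). The median log2 fold change was 7.51 against -0.0585 over all genes. In the cerebellum 13 of them were higher than in the thymus (against 83.5%), with a median of 6.38 against 0.0103. Scg3, a granin of secretory granules, was first by p in both (10.63, SE 0.14, and 10.75, SE 0.14). Only 12 of the 14 passed the thymus filter, so some entered the organ fit by their brain counts. The counts of higher genes against the thymus were in part set by this, and the size of such folds is uncertain. Between cerebrum and cerebellum 8 were higher and 2 lower in the cerebrum (10 of 14, against 51.1%; median 0.78 against -0.0295), with Vgf, a granin-like precursor, first by p (2.91, SE 0.28); in the 10 Tol libraries Vgf was not called (1.59, edgeR adjusted p = 0.105). Cpe, the carboxypeptidase that trims peptide ends, had the highest CPM of the list in every cerebrum and in 4 of the 6 cerebella, and Chgb had it in cerebellum WT 3 and WT 4.

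Between genotypes, edgeR called 0 genes of the 3 lists in any organ. In the cerebrum 13 neuropeptides, 17 receptors and 14 processing genes were tested, and those with the lowest p were Cort (log2 fold change -0.33, SE 0.16), Sstr2 (-0.39, SE 0.19) and Vgf (-0.28, SE 0.11, edgeR adjusted p = 0.466). The medians were -0.16, -0.032 and 0.0014, against -0.0049 over all genes. In the cerebellum, where 12, 19 and 14 were tested, the genes with the lowest p were Penk (-0.27, SE 0.17), Sstr4 (1.46, SE 0.67) and the chaperone gene Scg5 (0.46, SE 0.19), each with an edgeR adjusted p of 0.957. The medians there were 0.095, 1.25 and 0.47, against 0.0105 over all genes, and Tol 2, 1 of the 2 Tol cerebella, held the most receptor RNA of the 6 (117 CPM, against 35.1 to 60.96 CPM in the others). In the thymus 11 of the 11 further neuropeptides tested had a log2 fold change above 0, with a median of 0.27 against 0.0070 over all genes, and none of the 11 passed. Among the cell-type markers, 7 of the 9 thymic epithelium genes were above 0 too, as given above, and so were 5 of the 9 thymocyte genes (median 0.041). Of the thymocyte genes Rag1 had the lowest p, at -0.44 (SE 0.13, edgeR adjusted p = 0.0927). Of the other lists, 7 of 8 cortical interneuron genes tested (median 0.17), 5 of 5 striatal (median 0.28) and 2 of 2 pituitary genes were above 0 as well. It was 2 of 5 for the neuron genes (median -0.080), 1 of 3 for cortical projection neurons and 1 of 2 for choroid plexus. For thalamus and midbrain and for cerebellum it was 0 of 2 each. None of these genes was called. Agrp, the agouti-related peptide that opposes melanocortins, had 0.82 (SE 0.25, edgeR adjusted p = 0.103), but several annotated genes overlap it. Of the thymus receptors Npy1r had -0.70 (SE 0.23, edgeR adjusted p = 0.120), and of the processing genes Scg5 had 0.56 (SE 0.17, edgeR adjusted p = 0.0982). A call of Scg5 was reached without thymus Tol 1 (0.60, edgeR adjusted p = 0.0484), where 2978 of 16370 genes were called.

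The 10 genes lie on 7 chromosomes of GRCm38. Oxt (ENSMUSG00000027301, chr2:130576173-130577054, + strand) and Avp (ENSMUSG00000037727, chr2:130580620-130582554, - strand) are neighbours 3565 bases apart, transcribed towards each other. Trh (ENSMUSG00000005892, chr6:92242061-92244650, - strand) and Npy (ENSMUSG00000029819, chr6:49822710-49829507, + strand) share chromosome 6 and Pmch (ENSMUSG00000035383, chr10:88091072-88092375, + strand) and Vip (ENSMUSG00000019772, chr10:5639218-5647617, + strand) share chromosome 10. Sst (ENSMUSG00000004366) lies at chr16:23889573-23890958 (- strand), Cck (ENSMUSG00000032532) at chr9:121489824-121495694 (- strand), Pomc (ENSMUSG00000020660) at chr12:3954951-3960642 (+ strand) and Hcrt (ENSMUSG00000045471) at chr11:100761069-100762931 (- strand).

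Peptide genes of neurons are a textbook case of transcription that follows cyclic AMP, through an element with the letters TGACGTCA or its shorter form TGACG, which the longer element holds on both strands. RefSeq's promoter table matched all 10 genes, and the 250 bases before each start were searched on both strands. TGACGTCA was found in 1 of the 10 windows, that of Sst, and in 1.55% of 32851 windows; TGACG was found in 4 of the 10 and in 17.8% of all windows. TATAAA, on the strand of the gene, was found in 4 of the 10 and in 7.59% of all. The 30 bases around the match are printed for the 4 genes with TGACG, which are Sst, Cck and Vip of the cortical group and Trh. The match is in capitals, CGTCA where TGACG lies on the other strand, on the GRCm38.p6 build: Sst at chr16:23890874-23890903 (- strand), Cck at chr9:121495723-121495752 (- strand), Trh at chr6:92244728-92244757 (- strand) and Vip at chr10:5639128-5639157 (+ strand). The stretch of Sst lies within GENCODE's only Sst transcript, which starts farther upstream than RefSeq's. A match describes the letters and is not evidence of a factor's binding.
Sst: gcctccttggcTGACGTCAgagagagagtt
Cck: ctgctggactgCGTCAgcactgggtaaaca
Trh: cccggctctgcCGTCAgcgcccctgcattc
Vip: gatcactactgTGACGtctttcggggagcc
The first base of the match stands at -48 in Sst, -47 in Cck, -96 in Trh and -79 in Vip, counted from RefSeq's start. Npy had no match to these letters in its window.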

How the data were processed

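RNA was taken from frozen tissue and read from stranded poly(A) libraries. The deposited values are estimated counts per gene, which the authors made by running Salmon 0.14.1 against GRCm38 transcripts plus that of the transgene; all are whole numbers, in 3 tables. How transcripts were summed to genes is not stated. Columns named MRT were taken as Tol, because the tables otherwise hold only WT. From these counts, genotypes were compared within each organ, and WT organs in a joint fit, in R 4.3.3 with edgeR 4.0.16 (filterByExpr, TMM, quasi-likelihood F test, Benjamini-Hochberg adjustment over all genes tested); the transgene was not counted among calls. DESeq2 1.42.0 was an alternative, beside other scalings, filters, a replicate block and leaving out libraries. The test was checked on simulated data with 200 genes changed. Symbols and positions came from GENCODE vM21 (34465 of 34585 entries matched, the transgene included in the total). No 2 libraries of a group held the same counts within sampling noise. The cerebellum table holds 2 Tol libraries; any others were not analysed here. P-values of the group comparisons measure the spread between mice of a group. In the brain this spread includes the differences in region markers between pieces given above. The permutation p-values of the correlations come from reordering the cerebra of both genotypes and measure no spread within a group.

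The 10 genes and the gene lists were chosen with earlier results of these data known. Avpr1a was named after its values were seen. Named genes were the 10 members, the list member with the lowest p in a comparison, the most abundant gene of a list in an organ or a library, genes of the hypothalamic transcription factor, pituitary and vasopressin receptor lists at the floor, and the 3 genes most like Avp, Pmch, Sst and Vip over the cerebra (those for Avp and Pmch are left out, both being at the floor); Gh, Tcf7l2, Mchr1, Foxb1, Tshb in the cerebra, Oxtr, Avpr2 and Aire were named after their values were seen. Lists for cortical interneurons, cortical projection neurons, striatum, thalamus and midbrain, cerebellum, choroid plexus, pituitary, thymocytes, thymic epithelium and neurons served to describe the tissue pieces.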

Additional observations from a re-analysis of the deposited data

Results flagged for a closer look

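In 51 groups of 4 libraries, the highest or the lowest library was compared with the rest by the size of its gap. It stood apart in 9, where chance gives about 1 in 20 if values are normally distributed. The groups are not independent, since the sums and their ratio hold the values of the members, so the 9 are given as a description. Pomc stood apart in 3 groups: in cerebrum Tol 3 at 2.70 CPM (0.926 to 1.07 in the others), in cerebrum WT 2 at 1.58 CPM (0.470 to 0.627) and in cerebellum WT 2 at 5.09 CPM (0.638 to 1.01). The summed hypothalamic peptides stood apart in 2 of the same libraries, at 3.30 CPM in cerebrum Tol 3 and 5.67 CPM in cerebellum WT 2. In cerebellum WT 1, Vip was at 5.74 CPM (0.0747 to 0.462 in the others) and the summed cortical peptides at 103 CPM (28.5 to 38.9). Npy was at 81.1 CPM in cerebrum Tol 2 (49.7 to 55.0 in the others). Avp was at 0.435 CPM in thymus Tol 3 (0.117 to 0.165), on 9 counts. Groups of 2 libraries, such as the Tol cerebella, could not be examined in this way.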

How the results depend on the processing

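Counts of called genes moved with the tool and the libraries; the cause was not tested. DESeq2 called 187 genes between genotypes in the cerebrum, 9 in the cerebellum, 1296 in the thymus and 7 for the difference between brain parts, where edgeR called 0, 0, 16 and 0. In the thymus, testing every gene with a count gave 130 and at least 10 counts in every library 85. Leaving out each library in turn gave 0 to 7 genes in the cerebrum (7 without WT 3, 2 without Tol 3), 0 to 2 in the cerebellum (2 without Tol 1), 0 to 2978 in the thymus and 0 to 1499 for the difference between brain parts, where 1499 came without cerebellum Tol 1. Without cerebrum Tol 4 and WT 3, left out after seeing the data, 2 genes were called. In the 10 Tol libraries cerebrum and cerebellum differed in 4302 genes, against 8892 in WT.

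Samples share replicate numbers across genotypes and organs. Between genotypes, deviations of same-numbered libraries were not alike (correlations from -0.415 to 0.495 in the cerebrum and -0.177 to 0.0670 in the thymus; the cerebellum has only 2 pairs, at -0.207 and 0.681). Between the WT organs the 12 same-numbered correlations ran from -0.0159 to 0.124, 11 of them above 0, and the 36 others from -0.136 to 0.0978, 12 above 0; a library correlated best with its own number in 7 of 12. The numbers were not taken as pairs, and whether they mark a mouse is not stated. With the replicate block the thymus gave 5 genes; in the cerebellum Sst turned to -0.80 and Vip to -0.22, Cck turned to 0.019 in the difference between brain parts, and Vip was not called in the cerebellum against the thymus (2.56, edgeR adjusted p = 0.0775).

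For members, 539 values kept their direction and side of the threshold, 33 turned, 6 lost and 2 gained a call. Both gains were of Trh in the cerebellum against the thymus, without cerebellum WT 2 and without WT 1 and WT 2, where every cerebellum left was at the floor. Of those that turned, Vip in the cerebellum against the thymus alone was called to begin with. Leaving out single libraries, the log2 fold change between genotypes ran in the cerebellum from -3.55 to 3.31 for Sst, -3.70 to 4.41 for Vip, -0.11 to 1.19 for Npy and -0.22 to 0.41 for Cck; in the cerebrum from -0.067 to 0.17 for Cck; and in the thymus from -0.092 to 0.30 for Pomc. The difference between brain parts ran from -3.61 to 3.27 for Sst, -4.32 to 3.80 for Vip, -0.98 to 0.33 for Npy and -0.39 to 0.24 for Cck. Pomc ran from -1.54 to 0.17 in WT cerebrum against cerebellum, -0.62 to 0.13 in cerebrum against thymus and -0.28 to 1.21 in cerebellum against thymus. In the 10 Tol libraries these 3 were 1.01, 0.68 and -0.34, and without cerebellum WT 1 and WT 2, chosen after seeing the data, the first was 0.034 and the last -0.14, with Vip at -1.11 in cerebellum against thymus, a sign without meaning, since both remaining cerebella and 3 of the 4 thymi had at most 3 counts. Without cerebellum Tol 2 and WT 1, also chosen then, Sst was -2.01 and Vip -0.76 between genotypes.

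The difference of Avp in the thymus was 0.0826 to 0.189 CPM with a library left out and 0.156 CPM without TMM, and its exact permutation p passed 0.05 only while all 4 WT thymi were included. As a mean over members of log2(CPM + 1), the hypothalamic minus the cortical value was -6.02 and -6.00 in Tol and WT cerebra, -3.33 and -2.61 in cerebella and -0.12 and -0.11 in thymi.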

Other observations

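The cortical lists hold other genes of cortical neurons, and bulk RNA does not show whether these genes and the peptide genes share cells. All 12 cortical interneuron genes were over the floor in every cerebrum, with summed levels of 859.98 to 1341 CPM, and Gad1, which makes the transmitter GABA, was the most abundant. The cerebella held more of this list, 1579 to 2328 CPM, and its Gad1 is also a gene of cerebellar neurons. In the WT cerebrum against the cerebellum 4 of the 12 were higher and 4 lower (8 of 12, against 51.1% of all genes), and the first of them by p was Lhx6, a factor of Sst and parvalbumin interneurons (log2 fold change 5.86, SE 0.23). The 8 cortical projection neuron genes were all higher in the cerebrum (8 of 8, against 51.1%), with a median log2 fold change of 5.21 and Tbr1 first by p, at 6.77. Only 6 of them passed the cerebellum filter, so the count rests in part on genes that entered the fit by their counts in another organ.

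Foxb1, a factor of the mammillary hypothalamus and of the midbrain and thalamus, had 5.86 CPM in cerebellum Tol 2 and 1.43 CPM in WT 2, against at most 0.248 CPM in the other 4 cerebella. The thymi had 0.298 to 1.67 CPM of it, more than any of the 8 cerebra. Tshb, a pituitary hormone gene that overlaps Tspan2 on the other strand, was over the floor in every library of the brain, at 1.31 to 2.03 CPM in the cerebra and 3.79 to 7.13 CPM in the cerebella, also where Prl had 0 counts. Tbx19 was the most abundant gene of the pituitary list in the thymi, at 4.12 to 5.56 CPM.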
